A study of Mus musculus with 37 samples.

Results

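Newborn and adult mouse neural stem and progenitor cells, both grown as primary neurospheres, were compared by their mature microRNAs (miRNAs). The members are 6 of the 37 runs of a series on mouse stem and progenitor cells, chosen by their labels. NSPC-P0-Exp is 3 runs of neurospheres expanded in culture from NSPC-P0 cells, which come from the SVZ and DG of postnatal day 0 mice (in brain, usually the subventricular zone and dentate gyrus). NSPC-Adult is 3 runs of neurospheres grown from both regions of adult mice, whose age the labels do not give. All mice are labelled wildtype. The strain label is C57/Bl6 for the newborn runs and adult replicate 1, and C57/Bl7 and C57/Bl8 for adult replicates 2 and 3. The other 3 neural runs, NSPC-P0, are the fresh day 0 isolates before culture (C57/Bl6), and their values are given beside the neurospheres as a description. Across 459 TaqMan quantitative PCR assays, each run was read as threshold cycles (Ct). A lower Ct means more RNA, 1 cycle is 1 log2 unit at full PCR efficiency, 40 means no amplification, and an assay counts as detected below Ct 35. The labels do not say whether replicates came from separate animals or cultures, so the p-values measure the spread between these runs only. Neurospheres can hold stem cells, progenitors and their progeny, so a difference in cell makeup and a difference in RNA per cell cannot be told apart.

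A miRNA guides silencing complexes to messenger RNAs that pair with its seed, the bases from position 2 to 8, so miRNAs with 1 seed share most of their predicted targets. The let-7 family is known for rising as embryonic cells mature, with targets such as Hmga2 and Lin28, and in mouse neural stem cells let-7b is known to lower Hmga2 with age. The miR-17-92 cluster and its paralogues are transcribed under Myc and E2F and are known for proliferating progenitors. miR-9 and miR-124 are the classical neural and neuronal miRNAs, and miR-132 is induced by the transcription factor CREB in active neurons.

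The newborn runs need a caution before any result. The panel was read as 5 blocks of wells, and in the second block of 96 assays NSPC-P0-Exp replicates 1 and 2 stood apart from every other neural run. Pearson's r between the 3 newborn runs was 0.0427 to 0.369 there (3 pairs of runs), against 0.922 to 0.993 in their other 4 blocks (12 pairs). Within the second block r was 0.960 to 0.965 among adult runs and 0.954 to 0.975 among fresh isolates. Against the mean of the adult runs, replicates 1 and 2 correlated at 0.228 and 0.0339 over the 96 assays, and replicate 3 at 0.926. miR-222 shows the pattern, at Ct 40 in replicates 1 and 2 but 23.0 in replicate 3 and 23.0 to 23.2 in the adult runs. Conversely, miR-302b* read 22.8 in replicate 2 and 40 in the other 8 neural runs. In all, 20 assays were seen in replicate 1 or 2 alone among the 9 neural runs, and 10 were missed by both and detected in the other 7. Displacing the values by 4 wells gave the highest r of 96 displacements tried, 0.350 for replicate 1 and 0.533 for replicate 2, still far under replicate 3 in place. The cause was not tested. The results below therefore describe the 363 assays outside this block. Differences, standard errors and adjusted p-values come from the fit of all assays unless the block is said to be left out, and 7 of the 89 assays used for centring lie in the block. Leaving it out moved the differences by 0.06 log2 units for assays above the floor in all 6 runs.

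**Figure D1:**
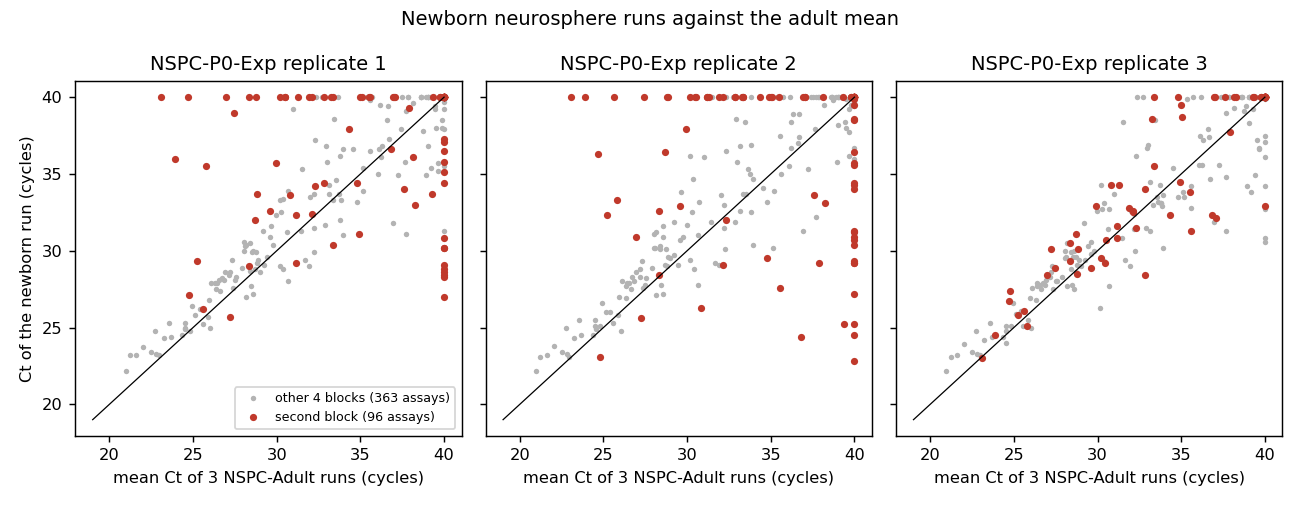
Ct of each newborn neurosphere run (vertical axis, cycles) against the mean Ct of the 3 adult runs (horizontal axis, cycles), 1 point per assay, with the line of equality. Red points are the 96 assays of the second block, which scatter away from the line in replicates 1 and 2 (r = 0.228 and 0.0339) and follow it in replicate 3 (r = 0.926). Grey points are the other 363 assays.

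Sequences are shown first for the miRNAs on which the comparison turns, from RefSeq on GRCm38.p6, 5′ to 3′, with the seed in capitals. Assay names carry no arm, so each was matched by name to the arm usually meant. Of 84 assays looked up, 78 had a sequence to print. The let-7 members share 1 seed and differ by a few bases outside it:
let-7a: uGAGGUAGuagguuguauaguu
let-7f: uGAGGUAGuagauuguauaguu
let-7d: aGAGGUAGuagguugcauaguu
let-7g: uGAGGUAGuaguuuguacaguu
let-7b: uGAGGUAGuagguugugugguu
let-7c: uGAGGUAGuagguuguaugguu
let-7i: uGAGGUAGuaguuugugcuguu
The miR-17 clusters hold several seeds. These are shown because members of 1 seed went different ways:
miR-17-5p: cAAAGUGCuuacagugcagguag
miR-20a: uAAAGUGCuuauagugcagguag
miR-93: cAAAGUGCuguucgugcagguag
miR-106b: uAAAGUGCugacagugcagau
miR-106a: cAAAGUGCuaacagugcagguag
miR-20b: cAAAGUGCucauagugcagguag
miR-18a: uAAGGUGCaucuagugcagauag
miR-19a: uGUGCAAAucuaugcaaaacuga
miR-19b: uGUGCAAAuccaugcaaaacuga
miR-92a: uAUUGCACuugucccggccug
miR-25: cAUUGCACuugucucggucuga
The miRNAs of several other assays described below, among them miR-212, which shares the seed of miR-132, and the miR-99 and miR-100 family, are:
miR-128: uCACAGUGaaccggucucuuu
miR-132: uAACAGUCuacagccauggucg
miR-212: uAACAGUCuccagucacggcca
miR-127: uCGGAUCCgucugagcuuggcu
miR-134: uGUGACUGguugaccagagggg
miR-431: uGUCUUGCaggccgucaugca
miR-34a: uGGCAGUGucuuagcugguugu
miR-99a: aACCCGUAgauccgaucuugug
miR-100: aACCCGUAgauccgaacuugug
miR-99b: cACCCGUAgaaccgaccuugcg
miR-34c, miR-135b and miR-383 are named without a sequence.

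Adult neurospheres differed widely from newborn ones. Outside the second block 119 assays were detected in at least 1 of the 6 runs and 244 in none. Levels were Ct values turned in sign and centred, in each run, on the mean Ct of the 89 assays detected in all 6 runs, and those below the lowest level that all runs could measure were set to that floor. limma's moderated test with Benjamini-Hochberg adjustment then called 54 of 132 tested assays at an adjusted p under 0.05 (40.9%), 34 higher (25.8%) and 20 lower (15.2%) in adult cells. Of the 100 tested assays outside the second block 52 were called (52.0%), 32 higher (32%) and 20 lower (20.0%), and the groups did not overlap in 70 (70.0%, against 78 of 132, 59.1%, over the whole panel). With that block left out of the fit the count was 61 of 100 (61.0%), 39 higher (39.0%) and 22 lower (22.0%), and the groups did not overlap in 71 (71.0%). All 52 calls were among those 61. Of the 52, 39 changed by more than 1 log2 unit and 13 by more than 2, of which 4 were higher and 9 lower.

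Scaling matters to every small difference. The mean Ct over the 89 common assays was 28.52 ± 0.155 (SD, n = 3) in newborn and 27.84 ± 0.0663 (SD, n = 3) in adult runs. The adult runs were thus 0.67 cycles earlier as a whole (exact two-sided permutation p = 0.1, the smallest that 3 against 3 allows), and centring removes this shift. Where an assay was above the floor in all 6 runs, a difference printed below lies 0.67 log2 units lower than the plain one. Printed rises are thus smaller than in plain Ct, and printed falls are larger. With no scaling the median difference over all 132 tested assays was 1.13 in place of 0.46, and the calls split into 61 higher and 14 lower. These figures include the second block. With that block left out the median was 0.80 in place of 0.19, and the calls with no scaling split into 56 higher and 15 lower. The number of assays detected was 123, 123 and 143 in the newborn runs and 139 in each adult run (exact two-sided permutation p = 0.4), and 93, 90 and 106 against 102, 102 and 101 outside the second block. Precision is limited by this number and by the spread between runs, an SD of 0.552 to 0.939 cycles between pairs of runs of a group over 82 assays.

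**Figure D2:**
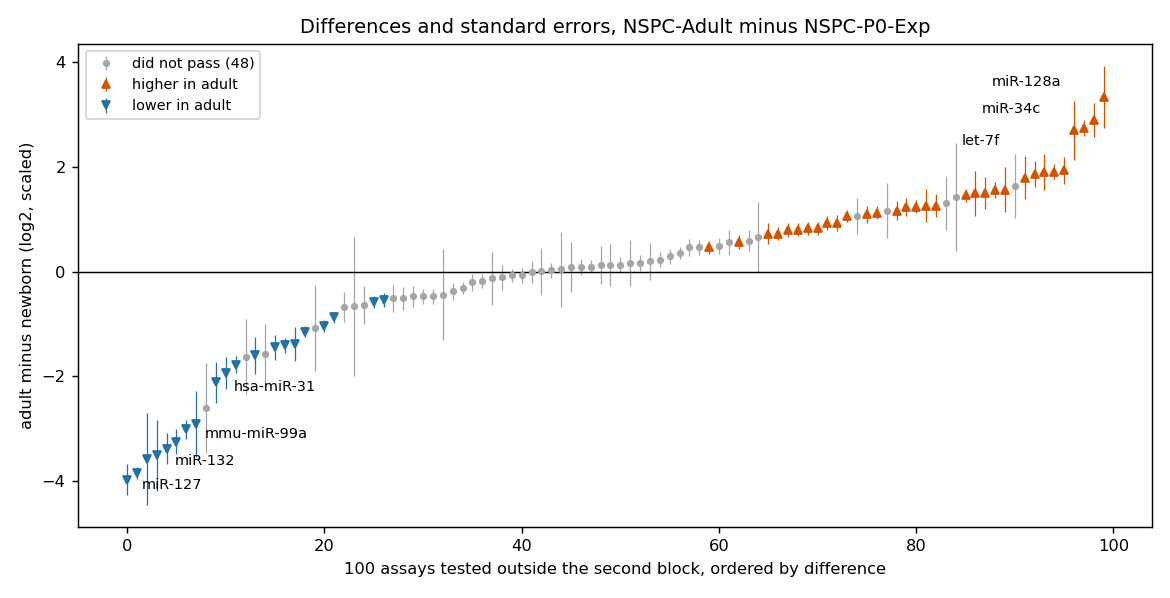
Differences between adult and newborn neurospheres (log2, after scaling) with their standard errors from limma for the 100 assays tested outside the second block, in order of size. Upward triangles are the 32 assays called higher in adult cells, downward triangles the 20 called lower, and grey points the 48 that did not pass. The values run from -3.97 for miR-127 to 3.33 for miR-128a, and those that are bounds, among them HSA-leuk-mir-7, miR-34a and hsa-miR-431, have no settled place in the order.

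The let-7 family divided by member. Of 10 let-7 assays on the panel 8 were tested, 5 rose in adult neurospheres and none fell, with a median difference of 1.56 against 0.13 over all tested assays outside the second block. Over all those tested assays 32% rose and 20.0% fell. let-7e and miR-98 were detected in none of the 6 runs. let-7f, measured at Ct 33.4, 34.7 and 33.1 in the newborn runs, came at 30.5, 29.5 and 31.1 in the adult runs. Every adult run was thus earlier than every newborn run, and the scaled level was higher by 2.69 ± 0.56 log2 units (6.47-fold, adjusted p = 0.0151, limma). A second let-7f assay, mmu-let-7f, gave 32.3, 31.7 and 32.6 against 29.5, 29.8 and 30.6, a rise of 1.56 ± 0.43. Its call ended without newborn replicate 1 or 3 or adult replicate 1 or 2 (adjusted p up to 0.114). let-7a went from 33.9, 33.2 and 32.7 to 30.5, 30.4 and 31.2, higher by 1.89 ± 0.34. With a detection limit of Ct 32 the calls of both let-7f assays and let-7a ended. let-7d went from 30.4, 31.2 and 30.5 to 28.4, 28.1 and 28.0, higher by 1.86 ± 0.25. let-7g went from 30.6, 30.2 and 30.0 to 28.2, 27.9 and 28.0, higher by 1.56 ± 0.16 (adjusted p = 0.00151, limma).

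The let-7 assays with the earliest Ct in these cells did not pass. let-7c read 23.4 in each newborn run and 22.7, 22.4 and 22.4 in the adult runs, a scaled difference of 0.23 ± 0.15 (adjusted p = 0.259, limma). let-7b read 24.4, 24.5 and 24.4 against 23.8, 23.6 and 23.6, a difference of 0.09 ± 0.13 (adjusted p = 0.621). let-7i read 27, 27.1 and 27.7 against 29.1, 28.2 and 27.2, overlapping in Ct, with a difference of -1.57 ± 0.57 (adjusted p = 0.075). The members that rose include the 3 hairpins of 1 cluster on the minus strand of chr13:48536012-48538272, let-7a-1, let-7f-1 and let-7d, within 2261 bases. let-7f also has a copy on chromosome X, let-7a has another on chromosome 9, and let-7g lies alone on chromosome 9. let-7b and a let-7c copy lie together on chromosome 15, and another let-7c copy on chromosome 16. Counting from 1 at the 5′ end, let-7f differs from let-7a by G12A alone, let-7c from let-7a by A19G, and let-7b from let-7a by A17G and A19G. The assays' cross-reaction between such near-identical members is not given in the sources used here. In the fresh isolates let-7f came at 36.4, 36.8 and 36.4, undetected, and let-7d at 33.5, 32.3 and 32, later than in either kind of neurosphere. The second let-7f assay, mmu-let-7f, was detected in them at 32.3, 32 and 33, overlapping the newborn spheres, and let-7b (25.2 to 25.4) and let-7c (23.8 to 23.9) were close to the newborn spheres.

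**Figure D3:**
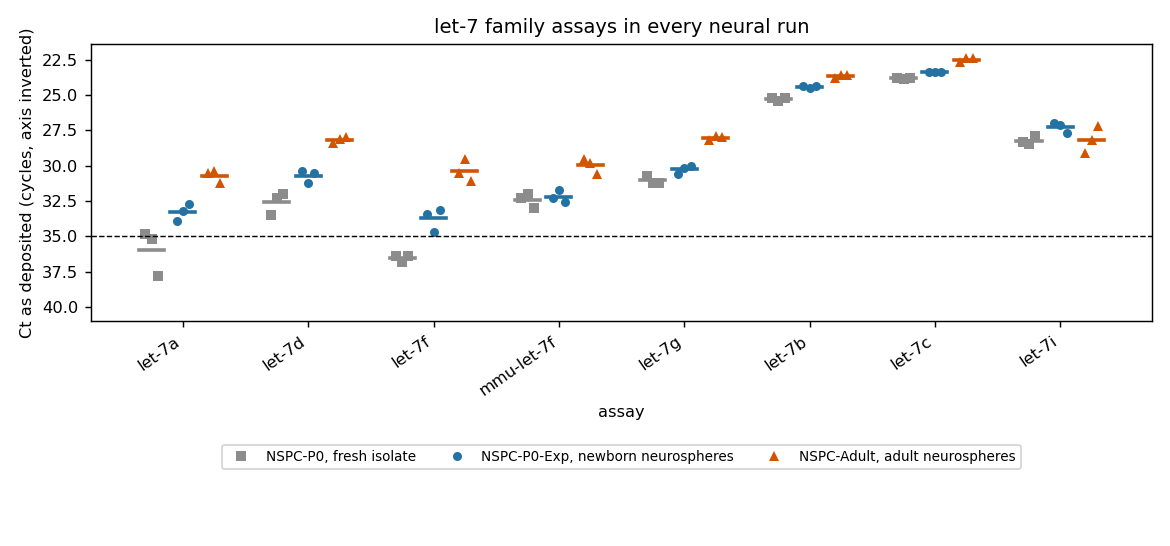
Ct of the 8 tested let-7 assays (vertical axis in cycles, inverted so that more RNA is higher) in the 3 fresh isolates, 3 newborn neurosphere runs and 3 adult neurosphere runs. Points are runs, short lines are group means, and the dashed line is the detection limit of Ct 35. For every assay but let-7i every adult run lies above every newborn run in plain Ct, which keeps the shift of the whole adult group. After scaling let-7b and let-7c overlap as well. The scaled groups did not overlap in 70.0% of the 100 assays tested outside the second block.

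Most tested members of the miR-17 clusters rose. Of 18 assays on the panel 14 were tested, 11 rose and 1 fell, with a median of 0.99 against 0.13 over the 100 tested assays outside the second block, and the summed level of the list was 8.26 to 8.40 (log2) in adult and 7.14 to 7.45 in newborn runs. Over those 100 assays 32% rose and 20.0% fell. With quantile normalization 13 of the list were tested, 5 rose and 1 fell: the calls of miR-18, miR-19a, miR-20, miR-106b and mmu-miR-93 ended and miR-19b was not tested. From the cluster on chr14:115043671-115044506, 836 bases on the plus strand, miR-20 was among the earliest assays of the panel. It went from Ct 23.2, 23.1 and 23.1 to 21.5, 21.2 and 21.0, a rise of 1.23 ± 0.17 (2.34-fold, adjusted p = 0.00494, limma). miR-19a went from 27.9 in all 3 newborn runs to 26.5, 26.3 and 26.4, a rise of 0.83 ± 0.13. miR-18 rose by 1.49 ± 0.43, a call that ended without any 1 run but newborn replicate 3 (adjusted p up to 0.124). The miR-17-5p assay of this cluster, late at 33.7, 33.0 and 32.4 against 32.2, 31.5 and 32.9, did not pass (0.16 ± 0.44).

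The cluster on chr5:138165321-138165818, on the minus strand, holds miR-106b, miR-93 and miR-25. miR-93 went from 24.8, 25 and 24.8 to 22.8, 22.7 and 22.7, a rise of 1.46 ± 0.12 (adjusted p = 0.00125, limma), and the second assay, mmu-miR-93, rose by 0.73 ± 0.20. miR-106b went from 27.9, 28.0 and 27.6 to 26.2, 26.0 and 26.1, a rise of 1.06 ± 0.11. miR-25 rose by 1.26 ± 0.31. miR-19b (0.56 ± 0.14) and both miR-92 assays (1.09 ± 0.16 and 0.93 ± 0.16) also rose, and have copies on chromosomes 14 and X. With 1 run left out, the call of mmu-miR-93 ended for each run but adult replicate 3 (adjusted p up to 0.114), that of miR-19b for each but newborn replicate 3 (up to 0.0872), and that of miR-25 for newborn replicates 1 and 2 and adult replicates 2 and 3 (up to 0.0931).

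Assays named for miRNAs of the cluster on chrX:52741693-52742567 alone went different ways. hsa-miR-20b fell, from Ct 33.9, 33.9 and 33.5 to 35, 34.6 and 35.9, by a scaled difference of -1.14 ± 0.11 or lower (adjusted p = 0.00138, limma). mmu-miR-106a, at 28.3, 28.2 and 28.0 against 27.4, 27.5 and 27.8, differed by -0.07 ± 0.15 (adjusted p = 0.739). The sequence of miR-106a differs from that of miR-17-5p by U10A alone, and miR-20b from miR-20a by U1C and U10C. A further assay, miR-106a, named without a species, rose by 1.26 ± 0.22, from 30.3, 30.2 and 29.6 to 28.4, 27.7 and 28.2, so the 2 miR-106a assays disagree. hsa-miR-18b and hsa-miR-363 of the X cluster were not detected.

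**Figure D4:**
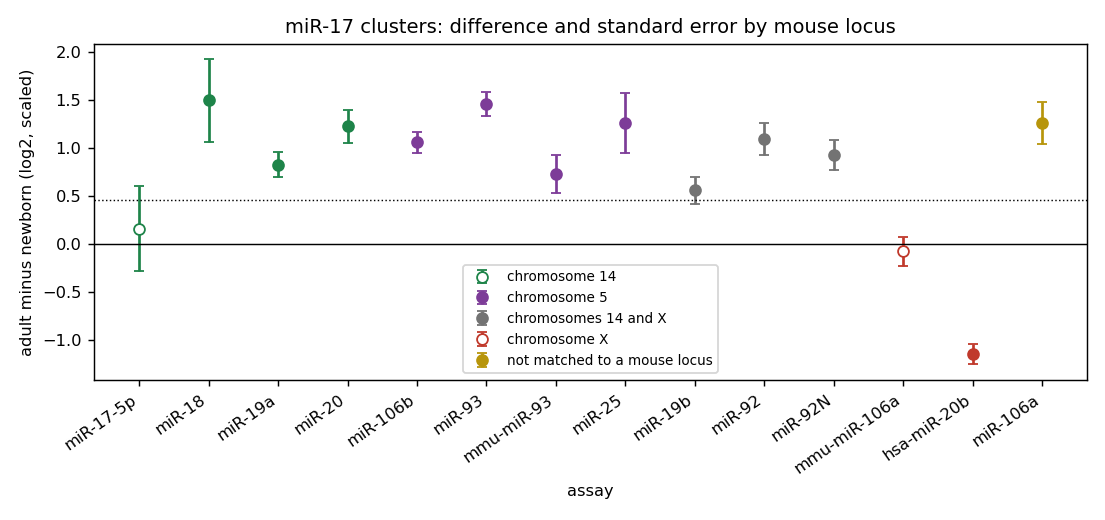
Scaled difference (log2, adult minus newborn) with its standard error for the 14 tested assays of the miR-17 clusters, grouped by the mouse loci of the miRNA. Filled points passed at an adjusted p under 0.05 and open points did not. The dotted line is the median of all 132 tested assays (0.46), which includes the second block. Over the 100 tested assays outside that block the median is 0.13. Assays of chromosomes 14 and 5 lie above 0, while of the assays named for chromosome X miRNAs hsa-miR-20b lies at -1.14, mmu-miR-106a at -0.07 and the miR-106a assay without a species, not matched to a locus here, at 1.26.

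Neural miRNAs moved in both directions. miR-128a, a brain-enriched miRNA of neurons, was 1 of the 4 assays outside the second block that rose by more than 2 log2 units. It was near the detection limit in newborn spheres, at Ct 33.3, 36.2 (undetected, set to the floor) and 34.3, and at 30.8, 30.4 and 29.4 in adult spheres, a scaled rise of 3.33 ± 0.60 (10-fold, adjusted p = 0.00937, limma). It entered the test only through the adult group, which detected it in every run. With a detection limit of Ct 32 the difference was 0.97 and did not pass (adjusted p = 0.0747). The fresh isolates came at 34.9, 34.3 and 32.8, overlapping the newborn spheres. miR-132 went the other way, from 28.0, 27.8 and 27.7 to 30.1, 29.7 and 32.2, a difference of -3.51 ± 0.69 (11.4-fold lower, adjusted p = 0.0123). Adult replicate 3 was lowest, but all adult runs were later than all newborn runs. In the fresh isolates miR-132 came at 30.8, 30.5 and 30.7, so its Ct was earliest in the newborn spheres.

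miR-212, from the hairpin next to miR-132 on chr11:75173388-75173747 and with the same seed, lies in the second block. It read 40, 40 and 28.5 in the newborn runs and 28.8, 28.4 and 29.1 in the adult runs. Newborn replicate 3, the run that followed the others there, was thus within the adult range in plain Ct. With newborn replicates 1 and 2 set missing the scaled difference of miR-212 was -0.69. miR-134, which in rat neurons limits the growth of dendritic spines, was detected in every newborn run (31.1, 32.2 and 31.3) and in 1 adult run (34.3, 40 and 38.8), a difference of -3.38 ± 0.30 or lower (adjusted p = 0.00134, limma). mmu-miR-383 likewise went from 31.8, 31.3 and 31.9 to 37.6, 38.3 and 34.9 (-3.24 ± 0.25 or lower, and -0.28, not passing, with a detection limit of Ct 32, adjusted p = 0.305), while a second miR-383 assay stayed at 40 in all 9 neural runs.

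Several defining neural miRNAs were not detected in the spheres. miR-124a was at 40 in all 6 neurosphere runs, and in every fresh isolate as well. mmu-miR-9, of neural progenitors, was at 40 in the newborn and 35, 36.1 and 40 in the adult runs, and mmu-miR-137 and mmu-miR-153 were not detected. Whether a missing signal reflects the cells or an assay that does not work was not tested. mmu-miR-137 was detected in the fresh isolates (33.1, 32.1 and 30.4). Of 9 neuronal assays outside the second block 3 were detected, 2 tested, 1 higher and 1 lower. Over all tested assays outside that block 32% were higher and 20.0% lower. Neuronal miR-218, in the second block, read 27.1, 23.1 and 27.4 in newborn and 24.7, 24.8 and 24.8 in adult runs. With newborn replicates 1 and 2 set missing its scaled difference was 2.21. miR-219 and miR-338 of oligodendrocytes lie in the second block, where no adult run and not newborn replicate 3 detected them.

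**Figure D5:**
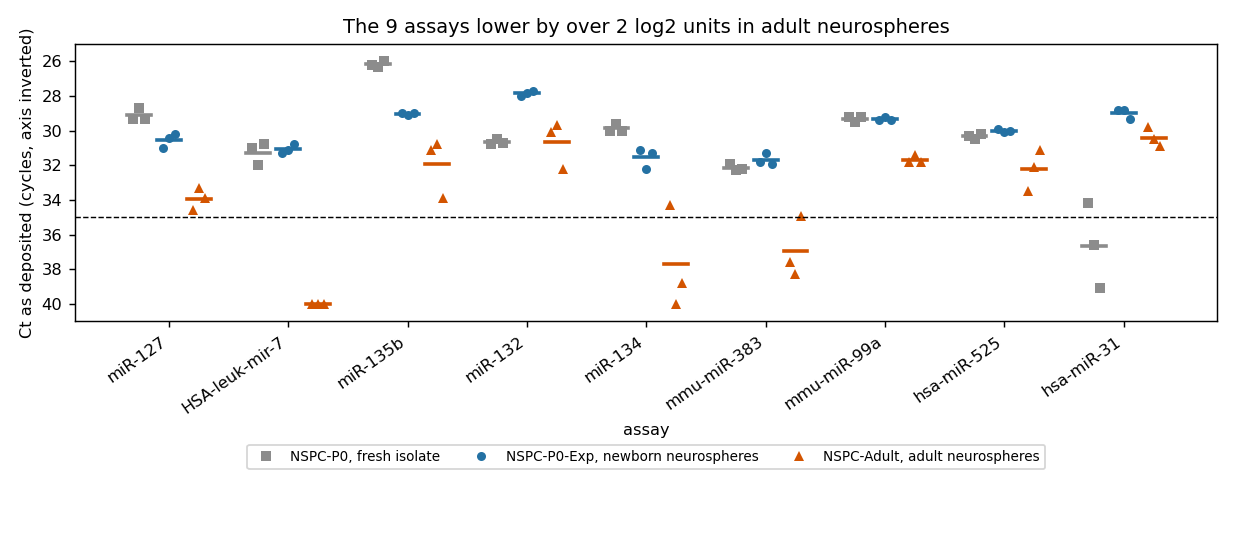
Ct (cycles, inverted axis) of the 9 assays outside the second block that were lower by more than 2 log2 units in adult neurospheres, in fresh isolates, newborn and adult neurospheres, with group means as short lines and the detection limit of Ct 35 dashed. Every adult run lies below every newborn run for all 9. HSA-leuk-mir-7 reads 40 in all adult runs, and hsa-miR-31 is later in the fresh isolates (34.2 to 39.1) than in both neurospheres.

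The imprinted Dlk1-Dio3 region on chromosome 12, whose miRNAs are expressed from the maternal allele, held assays that rose and assays that fell. Of its 36 assays outside the second block 9 were detected and 6 tested, with 2 higher, 2 lower and a median of 0.70, shares not far from the 32% higher and 20.0% lower over all tested assays outside the second block. miR-127 (chr12:109592846-109592915), which is antisense to Rtl1, was 1 of the 9 assays that fell by more than 2 log2 units. It went from Ct 31.0, 30.4 and 30.2 to 34.6, 33.3 and 33.9, a difference of -3.97 ± 0.30 (15.7-fold lower, adjusted p = 0.000788, limma), and came at 29.3, 28.7 and 29.3 in the fresh isolates. miR-134, described above, lies at chr12:109734139-109734209 of the same region.

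hsa-miR-431 and hsa-miR-432 were detected in the adult spheres alone, and the newborn runs, all at the floor, had no spread in their tests. hsa-miR-431 read 40 in all newborn and fresh runs and 32.6, 32.1 and 32.3 in adult runs, a rise of at least 1.90 ± 0.14 (adjusted p = 0.000788). hsa-miR-432 read 40 in all newborn and fresh runs and 33.1, 33.0 and 32.1 in adult runs, at least 1.50 ± 0.31, with the call ending without newborn replicate 1 or 2 (adjusted p up to 0.0677). The mouse assay mmu-miR-431 was detected throughout, at 32.5, 32.5 and 32.7 against 31.2, 30.6 and 29.0, a difference of 1.63 ± 0.61 that did not pass (adjusted p = 0.083) but did with the second block left out (1.69 ± 0.57, adjusted p = 0.046). The miR-431 hairpin (chr12:109590447-109590537) and the miR-432 hairpin (chr12:109594956-109595030) lie on either side of miR-127 on the same strand. miR-381, further along, differed by -0.11 ± 0.24 (adjusted p = 0.753). hsa-miR-433, between miR-431 and miR-127, was not tested, with Ct 34.9, 35.8 and 34.2 in newborn and 40, 38.9 and 37.9 in adult runs. miR-370, in the second block, read 28.4 in newborn replicate 3, 32.9, 34.8 and 30.8 in adult runs and 26.8, 26.8 and 26.4 in fresh isolates. Second assays for miR-127 and miR-134 were at 40 in all 6 neurosphere runs.

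The miR-99, miR-100 and miR-125 families, which include the known partners of let-7 in 3 clusters, were mostly lower. All 6 assays were tested, 4 fell and none rose, with a median of -0.72. Over all tested assays outside the second block 20.0% fell and 32% rose, with a median of 0.13. With no scaling 1 fell and 1 rose, and with the second block left out 5 fell and 1 rose. mmu-miR-99a went from Ct 29.4, 29.2 and 29.4 to 31.8, 31.4 and 31.8, a difference of -3.01 ± 0.18 (8.04-fold lower, adjusted p = 0.000551, limma), and was lower under every scaling tried. The other miR-99a assay barely moved in plain Ct, at 25.7, 25.8 and 25.5 against 25.9, 25.8 and 25.9, and its difference of -0.87 ± 0.10 did not pass with no scaling (-0.20, adjusted p = 0.187) or with quantile normalization (adjusted p = 0.0874). miR-100, at 25.2, 25.3 and 25.1 against 25.7, 25.4 and 25.6, differed by -1.04 ± 0.12 after scaling and did not pass with no scaling (-0.37, adjusted p = 0.0525). miR-125a, at 24.5, 24.5 and 24.4 against 24.4, 24.3 and 24.4, differed by -0.57 ± 0.11, and with no scaling by 0.10 in the opposite direction. miR-99b, whose cluster on chromosome 17 also holds let-7e and miR-125a, differed by 0.59 ± 0.21 (adjusted p = 0.0711). The mature miR-99a and miR-100 differ by U16A. miR-99a lies beside let-7c-1 on chr16:77598936-77599750, and let-7c did not pass.

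The miR-34 family, known as targets of p53, and several broad families moved less evenly. miR-34c went from Ct 39.2, 36.1 and 33.7 in newborn to 31.2, 30.9 and 30.9 in adult runs, a rise of 2.89 ± 0.33 (adjusted p = 0.00236, limma). Newborn replicates 1 and 2 were undetected and set to the floor, so miR-34c entered the test only through the adult group. With a detection limit of Ct 32 the difference was 0.17 and did not pass (adjusted p = 0.128). miR-34a was undetected in newborn runs (35.3, 40 and 38.4) and at 31.8, 31.2 and 31.5 in adult runs, at least 2.74 ± 0.16 higher. The second assays do not match these: miR-34aN overlapped between the groups (31.3, 31.9 and 30.8 against 30.0, 34.5 and 29.8) and miR-34cN was undetected in all 6. hsa-miR-181b rose from 23.2 in each newborn run to 21.6 in each adult run (0.93 ± 0.13), and hsa-miR-181d rose by 0.79 ± 0.13, neither passing with quantile normalization (adjusted p = 0.275 and 0.0699). Of 7 miR-30 assays 2 rose, a share near the 32% of all tested assays outside the second block, miR-30c by 1.13 ± 0.13 (25.3, 25.5 and 25.3 against 23.7, 23.5 and 23.5) and miR-30a-5p by 0.73 ± 0.13, which did not pass with quantile normalization (adjusted p = 0.143). Of 3 miR-29 assays only miR-29c passed (0.46 ± 0.13), a share also near that 32%. Its call ended without any 1 run but newborn replicate 3 (adjusted p up to 0.135). No tested assay of the miR-15/16, miR-23/27/24, miR-26, miR-130 or miR-221 lists passed outside the second block (2, 5, 4, 2 and 1 tested). With that block left out of the fit miR-27a (0.52, adjusted p = 0.0159) and miR-26a (0.42, adjusted p = 0.018) passed as higher, and with no scaling all 4 miR-26 assays did.

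Further single assays fell. HSA-leuk-mir-7, an assay whose target is not annotated here, was detected in every newborn run (31.3, 31.1 and 30.8) and fresh isolate and at 40 in every adult run, the only assay detected in all newborn and no adult run outside the second block (-3.84 ± 0.12 or lower, adjusted p = 6.25e-05, limma). miR-135b, which in mouse is known to target Wnt pathway regulators, read 29.0, 29.1 and 29.0 against 31.1, 30.8 and 33.9 (-3.57 ± 0.87), and was earliest in the fresh isolates (26.2, 26.3 and 26.0). Its call ended without newborn replicate 1 or 2 (adjusted p up to 0.0825). hsa-miR-146b, a relative of miR-146a in innate immune feedback, went from 25, 24.8 and 25 to 26.0, 26.0 and 26.1 (-1.77 ± 0.16, adjusted p = 0.00134), while miR-146, with the same seed, differed by 0.19 ± 0.35. hsa-miR-31 went from 28.8, 28.8 and 29.3 to 29.8, 30.5 and 30.9 (-2.11 ± 0.39), and a second miR-31 assay by -0.51 ± 0.22, not passing. hsa-miR-425 (-1.59 ± 0.35), mmu-miR-463 (-1.45 ± 0.24) and mmu-miR-351 (-1.41 ± 0.14) fell as well. The hsa-miR-425 call ended with no scaling (adjusted p = 0.0908) and without adult replicate 1 or 3 (up to 0.0599). A further 7 assays outside the second block were detected in all adult runs and no newborn run: miR-34a, miR-143, hsa-miR-188, hsa-miR-431, hsa-miR-432, hsa-miR-491 and mmu-miR-192. Of these hsa-miR-491 did not pass (adjusted p = 0.0968), while hsa-miR-188 (at least 1.24 ± 0.12) and mmu-miR-192 (at least 0.80 ± 0.13) did. These 7 and HSA-leuk-mir-7 were tested only through the group that detected them. The other group lay at the floor without spread, so their p-values rest on the spread of 1 group. Further assays entered through 1 group alone, among them miR-128a and miR-34c (adult) and miR-134, mmu-miR-383 and hsa-miR-20b (newborn). For miR-134, mmu-miR-383 and hsa-miR-20b the adult runs lay at the floor as well. Assays that enter this way are picked for being detected in that group, so their p-values lend the direction no independent support.

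Few markers of other cell types were detected outside the second block, and they moved in both directions. The mesenchymal miRNAs miR-143 (37.2, 36.5 and 36.2 against 32.7, 32.4 and 31.8) and miR-145 (31.3, 31.9 and 31.8 against 30.0, 28.9 and 28.7) were higher in adult spheres, by at least 1.94 ± 0.26 and by 1.79 ± 0.41. The miR-145 call ended without newborn replicate 2 or adult replicate 2 or 3 (adjusted p up to 0.0773). Of the 3 mesenchymal assays outside the second block these 2 were detected, and the summed level of the list was -3.57 to -2.83 (log2) in newborn and -1.92 to -0.74 in adult runs. In the second block miR-214 and miR-199a* of this list went the other way. In newborn replicate 3 miR-214 read 32.9, against 40 in all adult runs, and miR-199a* read 32.1, against 40, 37.3 and 33.9. With newborn replicates 1 and 2 set missing their scaled differences were -1.78 or lower and -2.46. The list's remaining assays there, miR-199a, miR-199b and miR-199-s, were at 40 in every neurosphere run. The endothelial miR-126, from an intron of Egfl7, read 29.0, 29.4 and 26.3 in newborn, 30.9, 29.5 and 30.1 in adult runs and 23.1, 23.4 and 23.3 in fresh isolates. Its difference of -2.61 ± 0.86 did not pass (adjusted p = 0.0611), but did with the second block left out (-2.55 ± 0.81, adjusted p = 0.037). miR-126* was detected in newborn replicate 3 alone of the 6 (32.7). The summed endothelial level was -0.85 to 1.94 in newborn and -3.03 to -1.77 in adult runs.

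Of 6 blood assays outside the second block 1, mmu-miR-155, was detected, and it was lower, at a difference of -1.37 ± 0.32 (27.7, 27.8 and 27.8 against 28.0, 28.3 and 29.1). It did not pass with no scaling (adjusted p = 0.111), or without newborn replicate 1 or 2 or adult replicate 2 (adjusted p up to 0.0786). The summed blood level, this assay alone, was 0.43 to 0.77 in newborn and -1.30 to -0.13 in adult runs. The defining blood markers miR-142-3p and mmu-miR-451 were at 40 in all 6 runs. None of 7 epithelial and none of 2 muscle assays outside the second block was detected. Of 8 choroid plexus and ciliated cell assays outside the second block 2 were detected. These were miR-34c, which was tested, and hsa-miR-449, seen in newborn replicate 3 alone of the 6 runs (30.6). Their summed level was -2.21 in that run and -3.33 to -3.10 in adult runs, and the mouse assays of miR-204 and miR-211 were at 40 in all 6. Another miR-204 assay, in the second block, read 40, 40 and 29.5 in newborn and 28.6, 30.9 and 31.1 in adult runs. It read 21.0, 24.3 and 24.8 in the fresh isolates. Of 8 assays of the pluripotency clusters outside the second block mmu-miR-294 was detected (29.6, 29.1 and 30.3 against 29.4, 30.9 and 28.0) and did not pass. The part of these other cells in the differences above was not tested.

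Assays named for miRNAs of a primate cluster gave signal in these mouse cells. Of 47 such assays 6 were detected and 5 tested, of which hsa-miR-525 (29.9, 30.1 and 30.0 against 33.5, 32.1 and 31.1, -2.91 ± 0.63) and hsa-miR-516-3p (27.2, 27.2 and 27.5 against 28.7, 28.9 and 28.1, -1.94 ± 0.31) fell. Over all tested assays outside the second block 20.0% fell. The hsa-miR-525 call ended without newborn replicate 1 or 2 or adult replicate 2 (adjusted p up to 0.0677). What these assays detect in mouse RNA was not established.

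Where a miRNA had a pair of assays, they did not always give 1 answer. Outside the second block 14 pairs were both tested. Both assays were called in 4 pairs, always in the same direction (let-7f, miR-92, miR-93 and miR-99a), 1 of the 2 in 6 pairs and neither in 4. The signs matched in 10 of 14, and the median gap between the differences was 0.93 log2 units.

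In the second block 32 assays were tested and 2 called, miR-375 and miR-301. miR-301, of the miR-130 family, read 40, 40 and 34.3 in newborn and 31.2, 31.1 and 31.6 in adult runs, and miR-375, of endocrine and secretory cells, 35.7, 37.9 and 32.9 against 31.4, 29.5 and 28.9. The miR-375 call ended without newborn replicate 1 or 2 or adult replicate 2 or 3 (adjusted p up to 0.0825), and with newborn replicates 1 and 2 set missing there (2.54, adjusted p = 0.158). With a detection limit of Ct 32 neither call held (miR-375 adjusted p = 0.135, miR-301 adjusted p = 0.771). Newborn replicate 3 was later than every adult run for both, but the other newborn runs there did not follow any neural run. miR-222 and miR-212 were alike in newborn replicate 3 and the adult runs in plain Ct alone. Their scaled differences, with newborn replicates 1 and 2 set missing, were -0.49 and -0.69. In that fit replicate 3 alone stood for the newborn spheres in this block, assumed to vary like the other runs. The scaled difference of miR-301 was then 2.57.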

How the data were processed

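Per the labels' protocols, defined numbers of cells (20 to 1000, per the series' design text, which states 425 mature miRNAs) were sorted or aliquoted, lysed and amplified by multiplex reverse transcription and TaqMan PCR. The values the authors deposited are Ct values to 1 decimal, a measure outside the other units, with 40 for no amplification. No threshold setting, software or normalization step was given in the sources used here. Each run has 459 assays of 457 names.

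Levels were centred on the assays detected below Ct 35 in all 6 runs, set to a common floor where they lay below what every run could measure, and rounded to 8 decimals. An assay was tested if all 3 runs of at least 1 group detected it. limma 3.58.1 in R 4.3.3 gave differences, standard errors and adjusted p-values over all tested assays. A difference is a bound ("at least", "or lower") where 1 group had no detected run or lay wholly at the floor. Its standard error is then understated, and the group at the floor adds no spread to its p-value. Summed levels add the linear levels of a list's detected assays outside the second block. Single values per run were compared by exact permutation (scipy 1.17.1). The members, lists and tests were chosen with earlier results of these data known. Leaving out the second block was chosen after seeing the data. Named are the 15 largest rises and 15 largest falls without overlap, up to 5 members of each of 25 lists by adjusted p, let-7f, miR-128a, miR-132, second assays, and assays detected in all runs of 1 group and none of the other; remaining let-7, miR-17, miR-99b and Dlk1-Dio3 assays, miR-126* and miR-302b* were named after their values were seen. On simulated data of 363 assays, 20 sets with 40 changed, all changes of 1 and of 2 log2 units were recovered (100%), with 3.38% of calls false; the noise was drawn with 1 SD of 0.208 cycles for all assays, so noisier assays are not covered.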

Additional observations from a re-analysis of the deposited data

How the results depend on the processing

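Of the 52 calls outside the second block, 22 kept their direction and stayed under an adjusted p of 0.05 in every alternative in which they were tested, and 38 did so in all 6 fits that left out 1 run. The count of calls was 54 as designed and ranged over 43 to 86 with 1 run left out, the 86 (51 higher and 35 lower) coming without NSPC-P0-Exp replicate 3, whose absence leaves the pair of newborn runs that stand apart in the second block. With that block left out the range was 48 to 60 against 61. Detection limits of Ct 32 and Ct 38 gave 41 and 56 calls, quantile normalization 41, median centring 58, no scaling 75 and testing every varying assay 50. With the replicate number as a block 39 assays were called (22 higher and 17 lower), and 54 with the second block left out. Same-numbered runs showed little shared deviation (r from -0.0912 to -0.0138 over 89 assays, and -0.0652 to 0.0799 over 82 with the second block left out). The labels do not say whether the numbers pair the runs, and 3 runs per group cannot settle it. Of the 54 calls, 15 ended with quantile normalization, 15 with the block and 11 with Ct 32. With no scaling the shift of the whole adult group is kept, so every small negative difference can turn sign. Such assays include miR-125a to 0.10, mmu-miR-140 to 0.13, miR-29bN to 0.50 and miR-26aN to 0.60. No paired analysis was made for the per-run values, because they come from 1 value per run and a pairing by number is not established. The number of assays detected differed by 9.33 (6 to 16 with 1 run left out) and the mean Ct by -0.67 (-0.76 to -0.64). Differences of late assays are limited by the floor.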
